A study of Drosophila melanogaster with 2 samples.

Results

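Peaks at single-gene promoters are the sites of Oc-GFP occupancy that lie next to a transcription start site. Sites also next to the start of a gene reading away on the other side are left out. Some genes with a member still have such a partner farther from the summit. The peaks were taken from the list of optimal IDR-thresholded peaks, where IDR rates how reproducibly sites rank in 2 libraries. Its 5844 peaks are as many as the pooled peaks at or above its lowest signal, since 24156 of 30000 lay below it. A single peak on it need not rank alike in both libraries. A peak became a member when its summit lay within 500 bp of an annotated start site, and it was left out when it also lay within 500 bp of the other start site of a head-to-head pair. This gave 1561 members among 5844 peaks, which is 26.7% (95% Wilson interval 25.6 to 27.9). They made up 78.3% of the 1993 peaks within 500 bp of any start site. The other 432 of those lay at head-to-head pairs, and 3851 peaks lay farther away. The choice used annotation and position and no signal value beyond membership of the list.

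Occupancy was measured by ChIP-seq, where chromatin is broken by sonication, an antibody pulls down the protein of interest with its DNA, and that DNA is read, in whole Drosophila melanogaster embryos 2 to 14 hours old. All embryos came from 1 transgenic line in which GFP is fused to the C-terminal end of Oc, and the antibody recognised GFP. The only group held 2 libraries, given in the labels as biological replicates 2 and 3, and both peak lists were made against 1 shared control alignment. Each signal is therefore a mixture over all cell types and ages collected, of unrecorded sex. Libraries from embryos without the tagged protein were not analysed here, and no source used here gave the number of reads per library. Intervals below cover counting error over peaks or genes only.

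Oc is the product of oc (ocelliless or orthodenticle) and belongs to the K50 class of homeodomain factors, named for a lysine in the recognition helix that favours TAATCC and related words such as TAAGCC. It patterns the anterior head and the ventral midline of the embryo and acts later in photoreceptors. A promoter is the stretch around a start site where RNA polymerase assembles, and in flies many promoters are bound by factors with words of their own. DREF binds TATCGATA at promoters of growth and replication genes, M1BP binds GGTCACAC at promoters of broadly expressed genes, and GAGA factor binds GAGAGAG repeats at many developmental promoters.

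The sequences printed show the range among the members, with some of the strongest sites and, from the same arms, strong sites with each promoter word. Each is 101 bases of the dm6 genome centred on the summit, read 5′ to 3′ on the strand of the gene. The 3 strongest members on the arms shown here come first, followed by a strong member whose summit lay downstream of the start site. The summits lay 89 bp upstream of CG14100, 40 bp upstream of Ugalt, 138 bp upstream of CG18549 and 72 bp downstream of the start of PNPase. Capitals mark TAATCC or its reverse complement GGATTA.

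CG14100 (3L:19590563-19590663, minus strand): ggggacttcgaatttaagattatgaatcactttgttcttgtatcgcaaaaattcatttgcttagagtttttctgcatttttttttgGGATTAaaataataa
Ugalt (X:2703842-2703942, minus strand): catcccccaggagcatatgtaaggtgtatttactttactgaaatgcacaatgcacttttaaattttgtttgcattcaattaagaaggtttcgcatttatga
CG18549 (3R:12449108-12449208, plus strand): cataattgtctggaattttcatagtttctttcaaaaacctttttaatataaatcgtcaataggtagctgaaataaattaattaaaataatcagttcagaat
PNPase (3R:31404618-31404718, minus strand): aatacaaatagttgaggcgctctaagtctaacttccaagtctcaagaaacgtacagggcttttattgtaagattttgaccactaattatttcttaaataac

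All 4 windows were poor in G and C, at 27.7% in CG14100, 33.7% in Ugalt, 22.8% in CG18549 and 32.7% in PNPase. The K50 word was found in CG14100 and in none of the other 3. The next windows hold promoter words. Capitals mark TATCGATA in CG14130 and eEF1gamma, both TATCGATA and GGTCACAC in Abl and Wdr62, and GAGAGAG or its reverse complement CTCTCTC in CG1907 and CG31886.

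CG14130 (3L:11815333-11815433, plus strand): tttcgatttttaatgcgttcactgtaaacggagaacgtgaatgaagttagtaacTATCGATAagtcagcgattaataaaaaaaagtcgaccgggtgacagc
eEF1gamma (3R:29220084-29220184, plus strand): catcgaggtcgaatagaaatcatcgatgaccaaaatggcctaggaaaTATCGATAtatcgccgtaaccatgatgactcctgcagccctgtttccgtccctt
Abl (3L:16647845-16647945, minus strand): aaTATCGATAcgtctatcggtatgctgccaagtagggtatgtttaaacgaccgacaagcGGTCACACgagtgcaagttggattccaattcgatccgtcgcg
Wdr62 (2L:1884585-1884685, plus strand): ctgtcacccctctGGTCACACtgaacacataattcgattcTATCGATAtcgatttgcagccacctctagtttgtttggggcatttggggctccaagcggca
CG1907 (3R:29618840-29618940, plus strand): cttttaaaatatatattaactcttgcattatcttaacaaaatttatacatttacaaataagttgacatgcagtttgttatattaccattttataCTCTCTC
CG31886 (2L:8958309-8958409, minus strand): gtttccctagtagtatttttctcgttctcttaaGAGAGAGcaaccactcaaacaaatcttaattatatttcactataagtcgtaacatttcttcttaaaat

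The 2 windows with both words lie across their start sites. The summit was 13 bp upstream of the start of Abl, a tyrosine kinase of axon guidance, and 13 bp downstream of the start of Wdr62, a spindle protein. The summit at eEF1gamma, a translation elongation factor, lay 38 bp upstream. Those 3 windows had GC contents of 48.5%, 49.5% and 46.5%, above all 4 of the strongest windows printed before them. Windows with TATCGATA were not all like these. The 2 strongest, at CG1827 and Alg3 and not printed here, had 26.7% and 42.6% GC, with summits 126 and 77 bp upstream, and CG14130 had 37.6%. The windows with GAGAGAG were AT-rich (21.8% GC in CG1907 and 29.7% in CG31886), and their summits lay 175 and 246 bp upstream.

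The strongest members lay at genes with a range of functions. CG14100 had the highest signal of all 5844 peaks, 2816 in the pooled list, with 1419 in replicate 2 and 1406 in replicate 3, and it ranked first in both replicate lists. The signal is the authors' value for each peak on a scale that was not stated, so it serves here to rank. The plexus gene px, which acts in wing vein patterning, followed with 1398 in replicate 2 and 1295 in replicate 3. Ugalt, a UDP-galactose transporter of the Golgi, had 1354 in replicate 2 and 1289 in replicate 3. These 3 stood among the first 4 peaks of each replicate list.

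Other genes among the 20 strongest included mRpL41, a mitochondrial ribosomal protein (1177 in replicate 2, 992 in replicate 3), and ph-p, a Polycomb group gene that encodes polyhomeotic (1163 in replicate 2, 1010 in replicate 3). PNPase, an exoribonuclease of mitochondria, had 1051 in replicate 2 and 989 in replicate 3. Further down the 20 were the glycolytic enzyme gene Gapdh2, the stress-response gene Sesn, the kinase gene gish, the RNA-binding protein gene msi and the homeobox gene dve. For Gapdh2 the signal was 724 in replicate 2 and 842 in replicate 3, and for msi it was 688 and 642 in the same order. The homeobox gene dve, itself of the K50 class, was the only one of the 20 from the list of patterning factors, with 979 in replicate 2 and 737 in replicate 3. Of the 20 summits, 18 lay upstream of the start site, at a median of 154.5 bp upstream. The exceptions were PNPase and the non-coding gene lncRNA:CR31840, 10 bp downstream. Members took 42 of the 100 strongest peaks of the whole list and 184 of the 500 strongest (36.8%), against 26.7% of all peaks.

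At the low end, the 3 members with the lowest signal were at CG3376, Gint3 and the cuticle gene Cpr65Az, with pooled signals of 146.2, 146.1 and 146.0. The edge of the distance rule had no gap. The members farthest out were Mtp at 500 bp downstream and Mkp3, cnc and CG43658 at 500 bp upstream, with signals of 375, 337, 221 and 210.0. The nearest peaks beyond it, 501 bp downstream of snRNA:U1:95Cb and of CG5854, had signals of 189 and 289.

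Most summits lay a short way upstream of the start site. Of the 1561 members, 1110 were upstream (71.1%, 68.8 to 73.3), 289 lay 51 to 500 bp downstream (18.5%), and 313 were within 50 bp on either side (20.1%). The median summit was 109 bp upstream, with quartiles at 226 bp upstream and 20 bp downstream. The stretch from 250 to 50 bp upstream held 629 members (40.3%). In the list of each replicate cut to the same number of peaks, 72.9% were upstream in replicate 2 and 68.7% in replicate 3, and the medians were 124 and 79 bp upstream. Weaker sites were the 4015 pooled peaks that met the same distance rule but had a signal below the lowest in the IDR list. Of these, 59.3% were upstream, the median was 45 bp upstream and 28.9% lay in the stretch from 250 to 50 bp upstream. Members at protein-coding genes were upstream in 72.9% of 1375 cases, and members at non-coding RNA genes in 59.8% of 164 (52.1 to 67.0).

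By annotation, 40.04% of member summits fell between genes, 31.1% in introns, 22.2% in 5′ untranslated exons and 5.45% in other annotated exons, while 13 lay in a 3′ untranslated region and 6 in coding sequence. Of the 1110 upstream summits, 489 (44.1%) were inside a gene, either a neighbour or a longer transcript of the same gene.

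Signal and position went together. Ordered by pooled signal into quartiles, from the lowest to the highest, the median summit lay 62.5, 79.5, 81.5 and 176 bp upstream, and the upstream share was 64.9%, 65.4%, 70.8% and 83.4%. The change lay mostly between the upper 2 quartiles. In the stretch from 250 to 101 bp upstream, 36.9% of the 474 members belonged to the highest quartile, against 6.17% of the 162 members between the start site and 50 bp downstream. In the lists of single replicates the highest quartile also lay farthest upstream, though replicate 3 had no steady order below it, with medians of 55, 30 and 68 bp upstream and upstream shares of 66.7%, 59.95% and 67.4% in its lower 3 quartiles. The highest and lowest quartiles had medians of 185 and 71 bp upstream in replicate 2 and of 159.5 and 55 bp upstream in replicate 3.

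**Figure D1:**
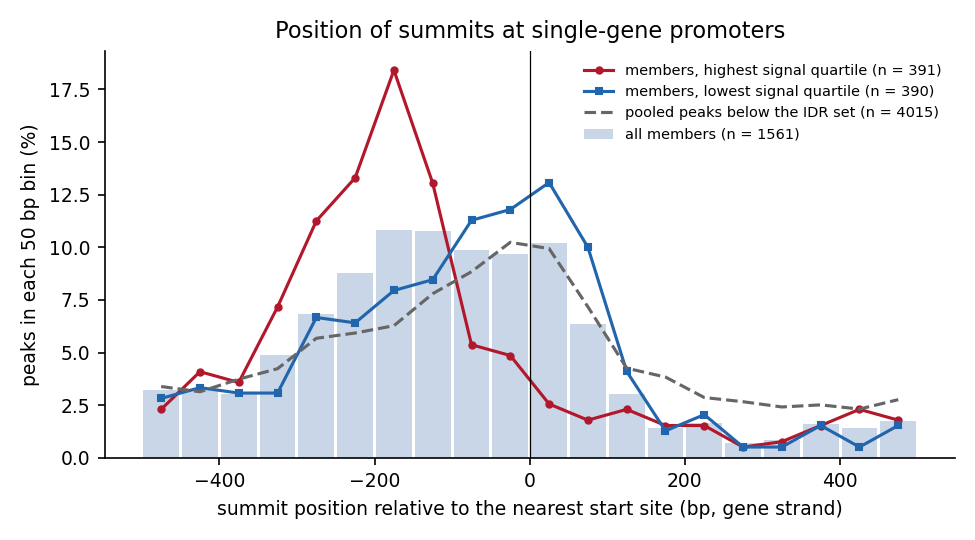
Position of summits relative to the nearest start site, in bins of 50 bp along the gene strand (x axis, negative is upstream) against the share of peaks in each bin (y axis, percent), for the highest and lowest signal quartiles of members (lines with points), for pooled peaks below the IDR set (dashed) and for all members (bars). The highest quartile reaches 18.4% between 200 and 150 bp upstream, and the lowest quartile reaches 13.1% in the first 50 bp downstream.

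The base composition of the sites changed with signal as well. The mean GC content of the 101 bases at the summit was 44.6%, 44.0%, 42.1% and 33.4% from the lowest to the highest quartile (SDs over members 10.4, 10.6, 11.5 and 10.9). The flanks, equally wide windows whose centres lay 500 bp to either side, stayed between 40.8% and 41.8% in all 4 quartiles. The 100 strongest members averaged 29.5% and the 20 strongest 27.7%. Within the stretch from 250 to 101 bp upstream, the GC content was 30.3% ± 10.1 (SD, n = 175) in members of the highest quartile and 44.8% ± 11.6 (SD, n = 89) in members of the lowest. Between the start site and 50 bp downstream the values were 48.8% ± 7.51 (SD, n = 10) in the highest and 47.1% ± 6.52 (SD, n = 53) in the lowest quartile, where few strong members lay.

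Each replicate showed this separately. In replicate 2 the highest and lowest quartiles of its own members had 32.8% and 43.4% GC, and in replicate 3 they had 34.9% and 45.7%. Across the 1561 members Spearman's rho between signal and GC content was -0.34, and between signal and summit position, with upstream counted as negative, it was -0.15. These describe sites that share libraries and control and are not independent. Peaks away from start sites ranged less, at 37.6% in their highest and 41.1% in their lowest quartile, and head-to-head peaks had 28.2% and 39.2%. Whether base composition has a part in the signal was not tested.

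**Figure D2:**
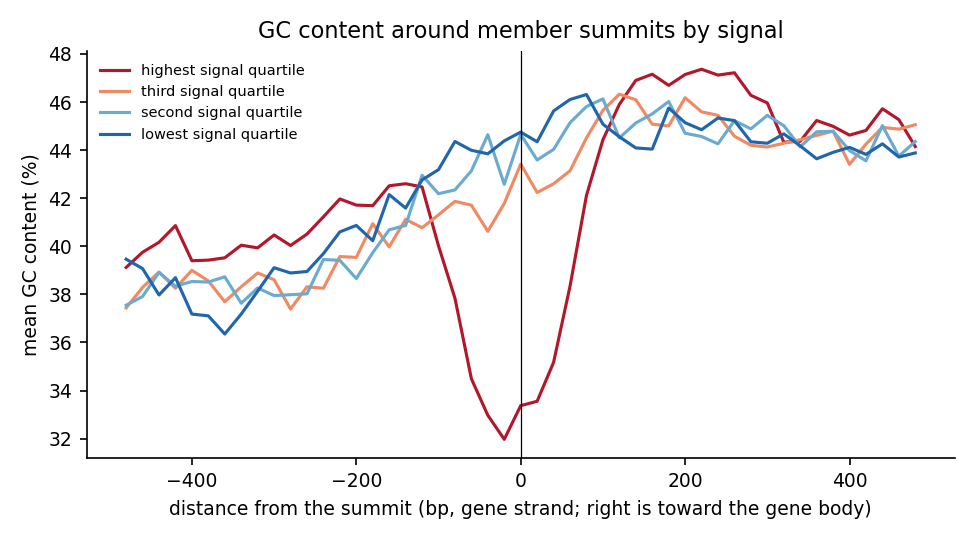
Mean GC content (y axis, percent) in steps of 20 bp around member summits (x axis, bp along the gene strand), for the 4 signal quartiles from the highest to the lowest. The highest quartile falls to 32.0% at 20 bp upstream of the summit, while the lowest is at 44.4% there.

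The words that Oc prefers were found at a minority of members. TAATCC, on either strand within 50 bp of the summit, was present at 89 members (5.70%, 4.66 to 6.96), against 3.59% of their flanks, 6.02% of head-to-head peaks and 9.61% of peaks away from start sites. TAAGCC was present at 104 members (6.66%, 5.53 to 8.01), against 3.43% of flanks, 7.64% of head-to-head peaks and 9.63% of the peaks away from start sites. The intervals of members and peaks away from start sites do not overlap for either word. The 4015 weaker peaks at single-gene promoters had TAATCC at 4.63% (4.02 to 5.33) and TAAGCC at 4.41% (3.82 to 5.09). The interval of members overlaps theirs for TAATCC and not for TAAGCC. Only 9 members held both. Replicate lists gave 5.87% and 5.63% for TAATCC in replicates 2 and 3, and 6.69% and 6.35% for TAAGCC. The share with TAATCC was similar in every quartile of signal, at 4.87%, 5.90%, 6.15% and 5.88% from the lowest to the highest.

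After CG14100 and dve, the strongest members with TAATCC were at aru, bbg, ASPP, Fhos, bark and amon. The signal at aru, which encodes an adaptor protein, was 398 in replicate 2 and 367 in replicate 3, and at bbg, a PDZ-domain protein, it was 362 and 368. The amon gene, which encodes a proprotein convertase of peptide-secreting cells, had 337 and 324 in the same order and held TAAGCC too. TAATTA, the word of other homeodomain classes, was at 6.28% of members and at 7.21% of their flanks.

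Words of promoter factors were more frequent at members than in their flanks or at sites away from start sites. Flank centres lay 500 bp from the summit, and the latter sites over 500 bp from a start site. These comparisons therefore also differ in distance from start sites, and start sites without a peak are compared further below. GAGAGAG was present at 78 members (4.997%, 4.02 to 6.19), against 1.95% of flanks, 1.16% of head-to-head peaks and 2.23% of peaks away from start sites. TATCGATA was present at 27 members (1.73%, 1.19 to 2.50), against 0.352% of flanks and 0.182% of peaks away from start sites, and head-to-head peaks had 2.31%. GGTCACAC was present at 19 members (1.22%, 0.781 to 1.89), against 0.256% of flanks, 2.55% of head-to-head peaks and 0.286% of peaks away from start sites. For these 3 words the intervals of members do not overlap those of flanks or of peaks away from start sites. They do overlap those of the 4015 weaker peaks that met the same distance rule with a signal below the IDR list. These had GAGAGAG at 4.28%, TATCGATA at 1.10% and GGTCACAC at 1.32%. All 6-letter words were ranked by their share at summits over flanks. In members CTATCG, which overlaps TATCGATA in 5 letters, stood at rank 1, CCTCTC at 2, CGAACG at 3 and TAATCC at 66. CTATCG was at 4.48% of members, 4.41% of the weaker peaks and 8.10% of head-to-head peaks. In peaks away from start sites TAATCC stood at rank 1. CTATCG ranked 1 in replicate 2 and 20 in replicate 3, where CGAGCG ranked 1. TAATCC ranked 25 and 174, so the exact places depend on the library. At least 1 of the 5 words was found at 290 members (18.6%), and 26 had 2 or more.

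**Figure D3:**
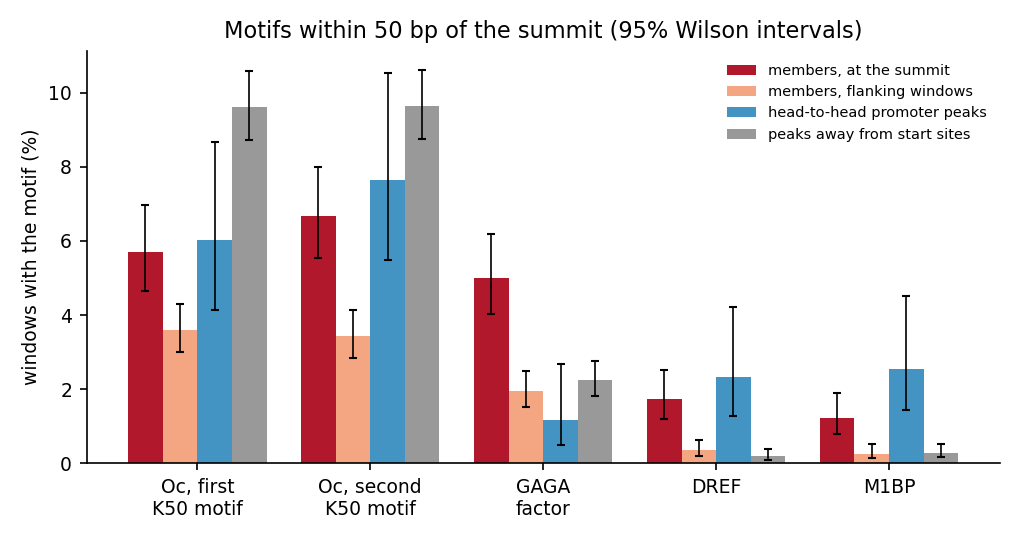
Share of windows with each word (y axis, percent, with 95% Wilson intervals) within 50 bp of summits for members, their flanking windows, head-to-head promoter peaks and peaks away from start sites, where the Oc words are TAATCC and TAAGCC and the others are those of GAGA factor, DREF and M1BP as spelled in the text. Members have fewer Oc words than peaks away from start sites (5.70% and 9.61% for TAATCC) and more of the 3 promoter words.

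The places of the words were taken within 50 bp of summits only, so they follow the summits. TATCGATA lay at a median of 37.5 bp upstream of the start site and GGTCACAC at 20.5 bp upstream. TAATCC was more spread, with quartiles at 283 bp upstream and 58 bp downstream. GAGAGAG had a median of 177 bp upstream over 171 matches in 78 members. Overlapping matches were all counted, so long repeats weigh more in that median. The summits of those 78 members had a median position of -125 bp. GAGAGAG was at 7.69% in the lowest quartile of signal (5.44 to 10.8), 4.87% and 4.103% in the next 2 and 3.32% in the highest (1.95 to 5.60), with overlapping intervals. The strongest member with GGTCACAC was Abl, with 167 in replicate 2 and 173 in replicate 3. Others included the ribosomal protein genes RpL30 and RpL27A and the elongation factor gene eEF1alpha1, all with summits within 30 bp of the start. Members with GAGAGAG included the heat shock gene Hsp26 (223 in replicate 2, 189 in replicate 3), the GATA factor gene pnr (219 and 205), the Sox gene D (210.2 and 147) and oc itself.

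Start sites with a member were compared with start sites that had no peak within 500 bp, in the window from 250 bp upstream to 50 bp downstream. Both sets held only start sites of protein-coding genes without a head-to-head partner within 1000 bp. GAGAGAG was present in 23.6% of 1186 start sites with a member (21.3 to 26.1) and in 7.84% of 11275 without a peak (7.36 to 8.35). The core initiator word TCAGT, read on the gene strand between 5 bp upstream and 6 bp downstream, was found at 21.7% with a member and 10.8% without. TATAAA between 40 and 20 bp upstream was at 3.88% and 7.39%. TAATCC did not separate them, at 7.84% (6.44 to 9.51) with a member and 8.77% without, while TAAGCC was at 12.7% (11.0 to 14.8) and 10.7% (10.1 to 11.2). TATCGATA was at 4.05% and 4.51%, and GGTCACAC at 5.14% (4.02 to 6.55) and 3.63% (3.30 to 3.99). Genes with a single start site gave 23.0% and 4.53% for GAGAGAG, 21.3% and 9.74% for the initiator, and 7.89% and 9.55% for TAATCC. The whole window had a GC content of 44.4% with a member and 40.8% without, and its part in these shares was not tested.

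The members were nearest to 1392 genes. At 74 members 2 genes had a start site within 500 bp of the summit, and at 20 members 3 or more did. Where start sites were equally near, the first gene ID was taken. For a comparison of gene groups, genes were counted among the 9330 protein-coding genes with a start site that has no head-to-head partner within 1000 bp, of which 1121 had a member, a background of 12.0%. The share grew with the number of start sites, from 7.18% of genes with 1 start site to 17.4% with 2, 27.6% with 3, 38.5% with 4 and 46.5% with 5 or more. Long genes had members more often, at 3.68% up to 2 kb, 13.7% from 2 to 10 kb and 28.9% above 10 kb. The main arms ranged from 11.0% on X to 13.2% on 3L, while chromosome 4 had 1 of 61 genes. Genes with a member also carried a peak away from start sites more often than other genes, at 44.5% against 13.3%. Within the 3 length classes these shares were 18.8% against 9.45%, 28.5% against 11.9%, and 67.3% against 29.4%.

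The 3 highest shares among the 16 lists were those of signalling, patterning and Polycomb or Trithorax genes. Of 51 patterning transcription factor genes 25 had a member (49.0%, 35.9 to 62.3), where the background rates for their numbers of start sites would give 7.10. Among those with 1 start site the count was 13 of 29, against the background of 7.18% for such genes. Of 30 signalling pathway genes 17 had a member (56.7%, 39.2 to 72.6, against 5.33 at background rates), and 9 of 14 with 1 start site did. Of 13 Polycomb and Trithorax group genes, regulators of heritable gene states, 6 had a member (46.2%, 23.2 to 70.9, against 2.05 at background rates). With 1 start site the count was 1 of 5.

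At the low end was the chemoreceptor list, which also holds odorant-binding protein genes. Of its 190 genes 1 had a member (0.526%, 0.0930 to 2.92, against 16.6 at background rates). That gene was the odorant-binding protein gene Obp99b, and the interval lies below the background. The counts at background rates allow for numbers of start sites and not for gene length. Cuticle protein genes had 6 of 102 (5.88%, 2.72 to 12.2, against 8.24 at background rates), an interval that includes the background. No member was found at 45 oxidative phosphorylation genes, where the upper bound of the Wilson interval is 7.87%, at 15 mitochondrial ribosomal protein genes (bound 20.4%) or at 6 mediator genes (bound 39.0%). The peaks at mRpL41 and mRpL4 are members, but those genes lie outside the background. Proteasome subunits had 1 of 26, translation initiation factors 2 of 25, neuronal effector genes 1 of 17, cell cycle genes 3 of 17, RNA polymerase subunits 2 of 12, and general transcription factors and insulator proteins 1 of 9 each. The intervals of these groups include the background.

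**Figure D4:**
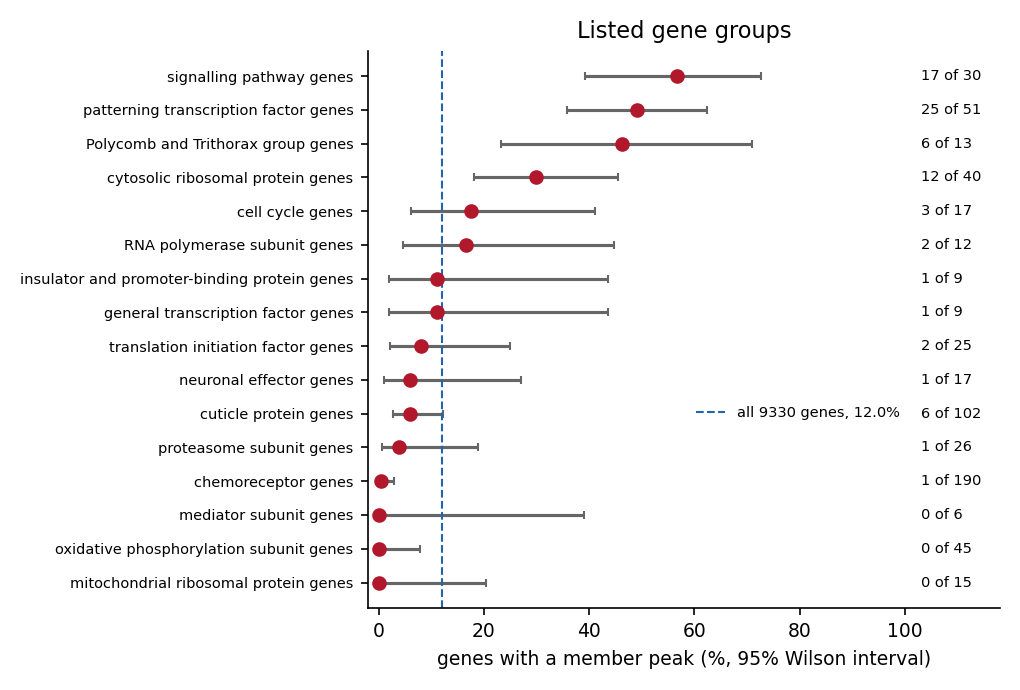
Share of the genes of each list that had a member peak (x axis, percent, points with 95% Wilson intervals) for the 16 lists (y axis), with the counts at the right and the background of 12.0% as a dashed line. Signalling and patterning genes lie at 56.7% and 49.0%, and chemoreceptor genes, a list that includes odorant-binding protein genes, at 0.526%.

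Among the 51 listed patterning factors the pooled signal was highest at dve and next at oc. At oc, the gene of the tagged protein, the summit lay 270 bp upstream of the start site, at position 8650951 of chromosome X, with a signal of 252 in replicate 2 and 199 in replicate 3. A second member at another oc start site, 415 bp upstream, had 239.9 in replicate 2 and 131 in replicate 3. The line carries a tagged insertion of oc, and the copy number of these sequences was not measured. The genes pnr, ems, D, slp1, cad and Dfd followed. At ems, a head gap gene, the signal was 203 in replicate 2 and 157 in replicate 3. At Dfd, the Hox gene of the maxillary segments, it was 189 and 122, and at bcd, the K50 gene that encodes the maternal anterior determinant, it was 95.8 and 100.2. The homeobox gene Ptx1 had 147 and 134.

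These summits kept away from the start itself. Over the 30 members at patterning genes the median summit was 180 bp upstream, 20 lay between 250 and 50 bp upstream, and 0 lay within 50 bp of the start. Their windows had a mean GC content of 52.7%, against 41.0% over all members. GAGAGAG was present in 9 of the 30 windows, TAATCC in 3 and TAAGCC in 3.

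The signalling genes held members at ligands, receptors and targets. The ligand genes were spi, which encodes an EGF receptor ligand, dpp, wg and hh. The signal at wg was 99.7 in replicate 2 and 88.4 in replicate 3, and at dpp it was 98.4 and 98.9. The receptor genes were Egfr, ptc, fz and fz2, with Egfr at 112 in replicate 2 and 94.6 in replicate 3. Among targets and inhibitors, nkd, an inhibitor of Wnt signalling, had the highest pooled signal of the list, 508, with 237 in replicate 2 and 249.7 in replicate 3. The Notch target E(spl)mbeta-HLH had 193 and 218. The stronger of the spi members, 212 bp upstream, had 294 in replicate 2 and no matching summit in replicate 3, while the other, 423 bp upstream, had 43.3 in replicate 2 and 158 in replicate 3. The member at aos, an inhibitor of the EGF receptor, had 153 in replicate 2 and 25.3 in replicate 3. At these sites of spi and aos the replicates do not give the same order of signal.

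Polycomb and Trithorax group members were led by ph-p, with a second member 435 bp downstream of another of its start sites at 627 in replicate 2 and 461 in replicate 3. The others were Su(z)2, Psc, tara, kis and osa. Su(z)2 had 313 and 210.2 at its strongest member, and Psc, its paralogue, had 143 and 142.

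Members at ribosomal protein genes, which encode parts of the cytosolic ribosome, lay on the start site. Of 40 in the background 12 had a member (30.0%, 18.1 to 45.4), against 6.24 at the background rates for their numbers of start sites. With 1 start site the count was 1 of 19 (5.26%), against the background of 7.18% for such genes. Counting genes with close head-to-head partners, 20 of the 92 listed genes had a member, against 8.70% of all protein-coding genes. The 21 summits were centred on the start site, with a median of 2 bp downstream, and 20 of them lay within 50 bp, against 20.1% of all members. The exception was a second summit at RpS23, 490 bp upstream. The strongest were RpS4 (191 in replicate 2, 271 in replicate 3), RpL23A (212 and 241) and RpL30 (159 and 151). GGTCACAC was present in 3 of the 21 windows, TATCGATA in 3 and TAATCC in 1. Their mean GC content was 45.0%.

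Several genes carried more than 1 member, at different start sites or at the same one. Of the 1392 genes, 127 had 2 members, 12 had 3 and 6 had 4. Those with 4 were Rtnl1, dnc, Sarm, Moe, SNF4Agamma and pyd, which encode a reticulon, a cAMP phosphodiesterase, a TIR-domain protein, moesin, a subunit of AMP-activated kinase and a junction protein. The members of 1 gene were unequal. At Rtnl1 they had 678, 316, 127 and 98.2 in replicate 2 and 634, 304, 91.1 and 79.0 in replicate 3, in the same order. The 3 members of Ptpmeg2, a phosphatase gene, were alike, with 373, 335 and 305 in replicate 2 and 320.2, 309 and 348 in replicate 3. Among genes with several separate groups of start sites, 263 of 688 members (38.2%) lay at the group farthest 5′, and an even spread over the groups would give 38.2%.

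Non-coding RNA genes were nearest to 164 members (10.5%), of which 146 were at lncRNA genes. The strongest were lncRNA:CR31840 (753 in replicate 2, 612 in replicate 3) and lncRNA:CR44339 (799.8 and 559). Among small structural RNA genes, 10 members were at tRNA, 6 at snoRNA and 5 at snRNA genes. The share of non-coding and structural RNA genes among all start sites was not counted, so these counts have no background. The snRNA genes included snRNA:7SKa and snRNA:7SKb, named for the RNA that restrains the elongation kinase P-TEFb. The summit at snRNA:7SKb lay 208 bp upstream, with 232 in replicate 2 and 241 in replicate 3. At snRNA:7SKa it lay 207 bp downstream, with 239 and 201. These genes have near copies in the genome, and no source used here said how reads shared between copies were placed.

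The members recurred in the replicates. A summit within 100 bp was found in the full list of replicate 2 for 95.8% of members, in that of replicate 3 for 97.5%, in both for 93.4% (1458 members) and in neither for 2. The share in both was 89.1% for head-to-head peaks and 94.2% for peaks away from start sites. Since the IDR list derives from these libraries, these shares describe the list and do not test it. Across the 1458 members Spearman's rho of signal between replicates was 0.68 and Pearson's r of log2 signal was 0.81. When members were chosen from each replicate alone at equal list length, 1041 were shared, 71.1% of those of replicate 2 and 62.4% of those of replicate 3.

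**Figure D5:**
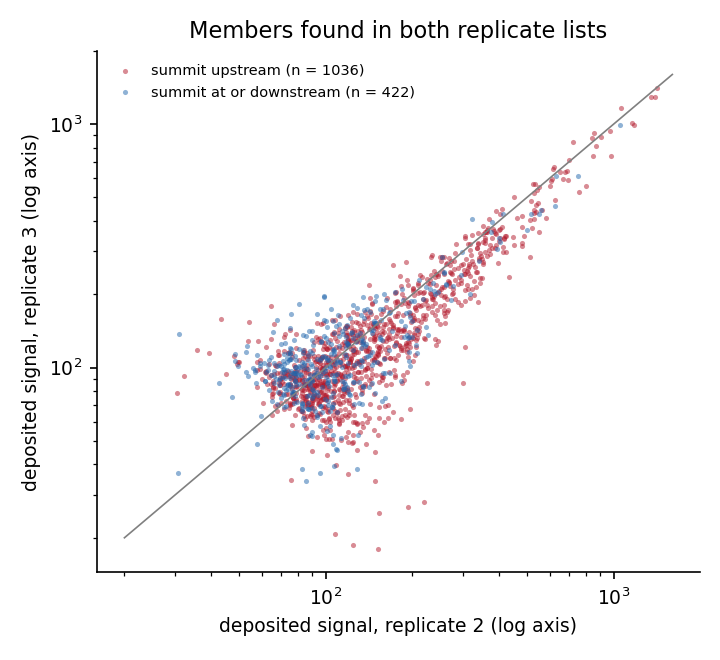
Deposited signal of each member in replicate 2 (x axis) and replicate 3 (y axis), both on log axes, for the 1036 members with a summit upstream of the start site and the 422 at or downstream of it that were found in both lists, with a line of equal signal. Points lie close to the line at high signal and are more spread at low signal in both classes.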

How the data were processed

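ChIP-seq peak lists of 2 libraries (biological replicates 2 and 3, 1 group) were used. Per the labels, the lists are in dm6 and were made by the authors for each replicate, for pooled alignments and as optimal IDR-thresholded peaks. No source used here gave the aligner, peak caller, IDR threshold or depth. The authors deposited a signal value on an unstated scale, a q-value on the -log10 scale and a summit position counted from 0 as another value. The highest q-value score was shared by 71.4% of members, so peaks were ranked by signal. The replicate and pooled lists held 30000 peaks each, and 24156 pooled peaks had a signal below the lowest in the IDR list. The label for age gives no embryonic age, so the source name was used.

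Summits were assigned to the nearest of 23697 start sites of Ensembl 115 (BDGP 6.54), without transposable elements. Sequence came from RefSeq release 6, with positions counted from 1. The scripts ran in Python 3.11.15 (numpy 2.4.6, pandas 2.3.3, scipy 1.17.1), with plots by matplotlib 3.10.9. Assignment and word search were tested on simulated data. With 1 group no test between conditions was possible and none was run over peaks. The 16 lists held 956 genes, matched by symbol, synonym or gene ID, and 3 further symbols, which had no match among the gene names, were dropped. The members, lists and 19 words were chosen with earlier results of these data known. The rule named the genes of the 20 strongest members, up to 4 per list and up to 8 per word by signal, the 8 genes with most members, the 3 weakest members and those at the distance limit. Beyond the rule (bcd, Dfd, Ptx1, ligands and receptors, RpS23, RNA genes), further genes were picked with their values in view. Alternatives varied the promoter width, the start sites, the list, the window and the match distance.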

Additional observations from a re-analysis of the deposited data

How the results depend on the processing

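Apart from counts of members, which ranged from 1183 to 1941 against 1561, 30 alternative values moved beyond the interval or spread of the value reported. Shares and GC content cannot change sign. The median distance could, and it stayed upstream in every alternative. With start sites within 250 bp, members were 21.8% of peaks, 9.70% of genes had one and the median summit lay at -72 bp. Start sites within 1000 bp gave 33.2% of peaks, gene-level starts 20.2%, and protein-coding starts 24.3%. Gene-level starts gave 9.29% of genes and 67.5% of summits upstream. The 2922 strongest peaks of the list gave 6.60% of genes, 77.1% upstream, 37.7% GC and GAGAGAG at 3.71%. Words within 25 bp fell to 2.88% (TAATCC), 0.833% (TATCGATA), 0.384% (GGTCACAC) and 2.82% (GAGAGAG), and within 100 bp they came to 9.99%, 3.33%, 2.82% and 12.2%, as windows of other widths must. Over all protein-coding genes 8.70% had a member, and over genes with 1 start site, an alternative chosen after seeing the data, 7.18%. Summits matched in both replicates for 76.8% of members at 50 bp, 97.9% at 200 bp and 98.4% by any overlap.

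With either replicate left out, members were 25.1% to 28.6% of peaks, 68.7% to 72.9% of summits were upstream, and 11.3% to 12.9% of genes had a member. The cause of these moves was not tested. No paired analysis was possible because there is only 1 group. Depth is unknown, and motif counts under 30, such as those of TATCGATA and GGTCACAC, are imprecise.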

Other observations

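Neuronal effector and cuticle protein genes had a member at 1 of 17 and 6 of 102, or 5.88% in each list. Both intervals include the background of 12.0%. The only neuronal effector gene of the list with a member, elav, which encodes a pan-neuronal RNA-binding protein, had a strong one, with a summit at -267 bp from the start site and signals of 543 in replicate 2 and 536 in replicate 3. The 6 members at cuticle protein genes were all upstream, from -495 to -169 bp, with pooled signals between 146.0 and 272, against a median of 217 over all members. One of them, at TwdlN, had no matching summit in replicate 2. Of the 3 members nearest to microRNA genes, the strongest was at mir-9378, with 249.0 in replicate 2 and 151 in replicate 3. There 3 genes had a start site within 500 bp of the summit, and at elav 2 genes did.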
